A study of Mus musculus with 6 samples.

Results

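The core clock genes described here are 10 of the 33696 genes counted in this single-cell RNA sequencing study of the mouse Achilles tendon: Arntl, Clock, Npas2, Cry1, Per2, Per3, Nr1d1, Nr1d2, Dbp and Tef. They were chosen by name, after earlier results of these data had shown that their levels differed between the Gli1+ and Gli1- libraries of uninjured tendon. That difference is therefore given as a description. All mice carried Gli1-CreERT2 and the Ai9 reporter and received tamoxifen, so a red cell had expressed Gli1, a transcriptional effector of Hedgehog signaling, at the time of induction or descends from a cell that had. The groups were uninjured tendon, tendon at 7 days post-injury (dpi) and tendon at 21 dpi, the injury being an Achilles tenotomy, with 8 mice of both sexes per group according to the labels. Reporter-positive (Gli1+) and reporter-negative (Gli1-) cells were sorted from each group, which gave 6 libraries, 1 for each sort at each time. In summed libraries, fewer cells of a type and less RNA per cell cannot be told apart. Mice were pooled within a library, so no group has a replicate library, no comparison of 2 groups has a test, and every interval below covers counting error only. The mice were kept on a reverse light/dark cycle, and the hour at which each group was collected is not given in the sources used here, so hour of collection and library cannot be told apart.

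The circadian clock is a feedback loop that runs in nearly every cell of the body. ARNTL (also called BMAL1) pairs with CLOCK or its paralog NPAS2 and binds E-box motifs, which turns on the Per, Cry, Nr1d, Dbp and Tef genes. PER and CRY proteins then block that pair, and the NR1D1 and NR1D2 (REV-ERB) proteins repress Arntl, Npas2, Clock and Cry1 through a second motif, the RORE, which the ROR receptors activate. DBP and TEF are PAR bZIP factors that act on D-box motifs in clock output genes. Genes of the RORE group and genes of the E-box group therefore peak at different times of day. The 10 genes are described in those groups, the RORE arm (Arntl, Clock, Npas2 and Cry1) and the E-box arm (Per2, Per3, Nr1d1, Nr1d2, Dbp and Tef), with Cry1 a gene that both motifs govern.

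Promoter sequence was compared first, since the arms are named for motifs. RefSeq start sites in GRCm38.p6 were matched by symbol for 9 of the 10 genes, at 13 start sites, and the 250 bases before each were searched on both strands. The E-box CACGTG was present before 3 of the 13 start sites, those of Cry1 and both of Tef, and in 6.02% of all 32851 promoters. The variant CACGTT was present in 2, of Cry1 and Nr1d1, and in 3.85% of all promoters. The D-box, searched as TTATGTAA or TTACGTAA, was present in 1, of Per3, and in 0.931% of all promoters. The RORE core, searched as TAGGTCA or TGGGTCA, was in none of the 13 and in 5.38% of all. These matches are descriptions of short windows and are not binding data. A site further away, across or after the start site, or with another core would be missed. For Arntl and Dbp, the genes whose levels differed most, and for the 4 genes with a match, 1 window each is printed 5′ to 3′ on the gene's strand, with the matched letters in capitals.
Arntl, chr7:113207215-113207464, plus strand: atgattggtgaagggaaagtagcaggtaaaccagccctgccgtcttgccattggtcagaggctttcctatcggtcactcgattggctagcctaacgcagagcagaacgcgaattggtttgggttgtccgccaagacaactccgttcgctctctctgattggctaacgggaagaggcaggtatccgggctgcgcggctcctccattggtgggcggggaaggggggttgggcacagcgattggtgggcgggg
Dbp, chr7:45704997-45705246, plus strand: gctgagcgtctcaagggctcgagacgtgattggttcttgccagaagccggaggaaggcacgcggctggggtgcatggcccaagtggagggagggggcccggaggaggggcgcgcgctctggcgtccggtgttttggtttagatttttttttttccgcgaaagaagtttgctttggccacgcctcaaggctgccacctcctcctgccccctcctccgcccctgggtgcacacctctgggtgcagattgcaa
Cry1, chr10:85185055-85185304, minus strand: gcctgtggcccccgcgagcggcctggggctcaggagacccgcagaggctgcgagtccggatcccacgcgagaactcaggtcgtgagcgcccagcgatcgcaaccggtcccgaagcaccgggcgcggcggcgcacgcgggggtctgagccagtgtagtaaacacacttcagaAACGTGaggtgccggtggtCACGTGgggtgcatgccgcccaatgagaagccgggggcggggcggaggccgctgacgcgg
Nr1d1, chr11:98775378-98775627, minus strand: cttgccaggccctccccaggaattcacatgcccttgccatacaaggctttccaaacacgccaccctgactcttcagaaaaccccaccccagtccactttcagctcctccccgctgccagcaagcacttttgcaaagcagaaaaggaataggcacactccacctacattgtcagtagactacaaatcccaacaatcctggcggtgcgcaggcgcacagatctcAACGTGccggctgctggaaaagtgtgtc
Per3, chr4:151044666-151044915, minus strand: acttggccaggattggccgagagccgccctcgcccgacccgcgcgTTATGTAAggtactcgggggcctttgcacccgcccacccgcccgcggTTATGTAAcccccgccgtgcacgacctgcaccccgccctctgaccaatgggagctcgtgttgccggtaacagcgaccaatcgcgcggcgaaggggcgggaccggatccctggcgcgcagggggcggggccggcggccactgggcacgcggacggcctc
Tef, chr15:81802423-81802672, plus strand: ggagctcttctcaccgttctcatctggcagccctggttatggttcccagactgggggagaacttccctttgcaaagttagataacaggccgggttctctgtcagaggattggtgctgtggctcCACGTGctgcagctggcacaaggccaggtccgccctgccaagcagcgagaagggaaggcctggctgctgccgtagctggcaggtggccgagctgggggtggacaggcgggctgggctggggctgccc
In the Cry1 window the CACGTT match, read on the other strand, began 79 bases before the start site and the CACGTG match 60 bases before it. The Per3 window held 2 D-box matches, which began 205 and 158 bases before the start site. The Tef match printed began 127 bases before the start site. A second window of Tef, which is not printed, held a CACGTG match 138 bases before its own start site, and the second window of Arntl held no match. The Nr1d1 match, also on the other strand, began 28 bases before the start site.

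Between 7057 and 10882 cells per library passed the filters, with 53589094 to 107739968 unique molecular identifiers (UMIs, 1 per captured transcript) in a library and a median of 4297 to 9770 UMIs per cell. The lowest median was that of the Gli1- uninjured library. At most 75 deposited cell barcodes were shared by any pair of libraries, 0.534% of either or less. The libraries differed in more than sort and time. T cell-like cells made up 3265 of the 7057 cells (46.3%) of the Gli1+ uninjured library and 2 of the 10882 Gli1- uninjured cells, and Cd3e, a subunit of the T cell receptor complex, stood at 110 CPM against 0.0560 CPM. Cells with the mesenchymal markers were 34.7% of Gli1+ uninjured cells and between 53.4% and 82.5% of the other 5 libraries. Gli1 transcript itself was low and close in the sorts, at 6.62 CPM in Gli1+ and 7.52 CPM in Gli1- uninjured cells. Although the labels give equal numbers of both sexes, Xist, the RNA of the silenced X chromosome of females, had 27080 UMIs in the Gli1+ uninjured library, 2 in the Gli1- uninjured library, 1 and 5 in the 7 dpi libraries, and 64229 and 65921 at 21 dpi. By these counts the uninjured libraries did not hold the same mix of mice, so sort and mice cannot be told apart in that pair. The clock genes are therefore given for whole libraries, within cell types and among cells of 1 sex.

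Arntl, the activator that the loop cannot do without, differed most among the 6 libraries. Its level in UMI counts scaled to a library total of 1000000 (CPM), summed over all kept cells, was 90.6 in the Gli1+ uninjured library, with a 95% Poisson interval of 88.3 to 92.9. It was 4.78 in the Gli1- uninjured library, with an interval of 4.21 to 5.40, 20.7 and 16.8 in the Gli1+ and Gli1- libraries at 7 dpi, and 46.4 and 54.6 in those at 21 dpi. The uninjured libraries were thus the highest and the lowest of the 6, and both libraries of each injured time lay between them. Npas2, the paralog of Clock, was at 46.7 CPM in Gli1+ and 14.2 CPM in Gli1- cells without injury, 26.7 and 26.8 CPM at 7 dpi, and 39.7 and 46.2 CPM at 21 dpi. Clock, whose message cycles weakly in most tissues, spanned only 46.0 to 72.9 CPM. Cry1, a repressor, was highest in Gli1- uninjured tendon at 83.8 CPM, next in Gli1+ uninjured tendon at 62.1 CPM, and between 35.7 and 38.8 CPM in the 4 injured libraries.

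In the E-box arm every gene was highest in Gli1- uninjured tendon, the library in which Arntl and Npas2 were lowest. Dbp, with intervals of 20.7 to 23.0 CPM and of 193 to 200.2 CPM, had levels without injury of 21.8 CPM (Gli1+) and 196 CPM (Gli1-), 69.9 and 78.8 CPM at 7 dpi, and 40.2 and 31.1 CPM at 21 dpi. Its order over the 6 libraries was the exact reverse of that of Arntl, and in both genes each neighbour in the order differed by more than its counting interval. Tef, a relative of Dbp, was at 24.6 CPM in Gli1+ and 80.6 CPM in Gli1- cells without injury, 27.0 and 27.8 CPM at 7 dpi, and 20.3 and 17.3 CPM at 21 dpi. Among the period genes, whose proteins block ARNTL, Per2 was at 27.5 and 95 CPM in the Gli1+ and Gli1- uninjured libraries, 58.5 and 63.8 CPM at 7 dpi, and 28.8 and 26.8 CPM at 21 dpi. Per3 was at 11.4 and 42.5 CPM in the same libraries, 16.8 and 20.9 CPM at 7 dpi, and 10.1 and 9.71 CPM at 21 dpi. Gli1- uninjured tendon was the highest library for both genes. The REV-ERB repressors were more even over the remaining libraries: Nr1d1 was at 124 CPM and Nr1d2 at 129 CPM in Gli1- uninjured tendon, and the other 5 libraries spanned 56.9 to 83.2 CPM for Nr1d1 and 48.0 to 69.6 CPM for Nr1d2. Over the 10 genes, 13 of the 50 neighbours in these orders did not differ beyond their counting interval, among them Clock, Per3 and Nr1d2 in the 2 libraries of 21 dpi and Npas2 and Tef in the 2 libraries of 7 dpi.

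**Figure D1:**
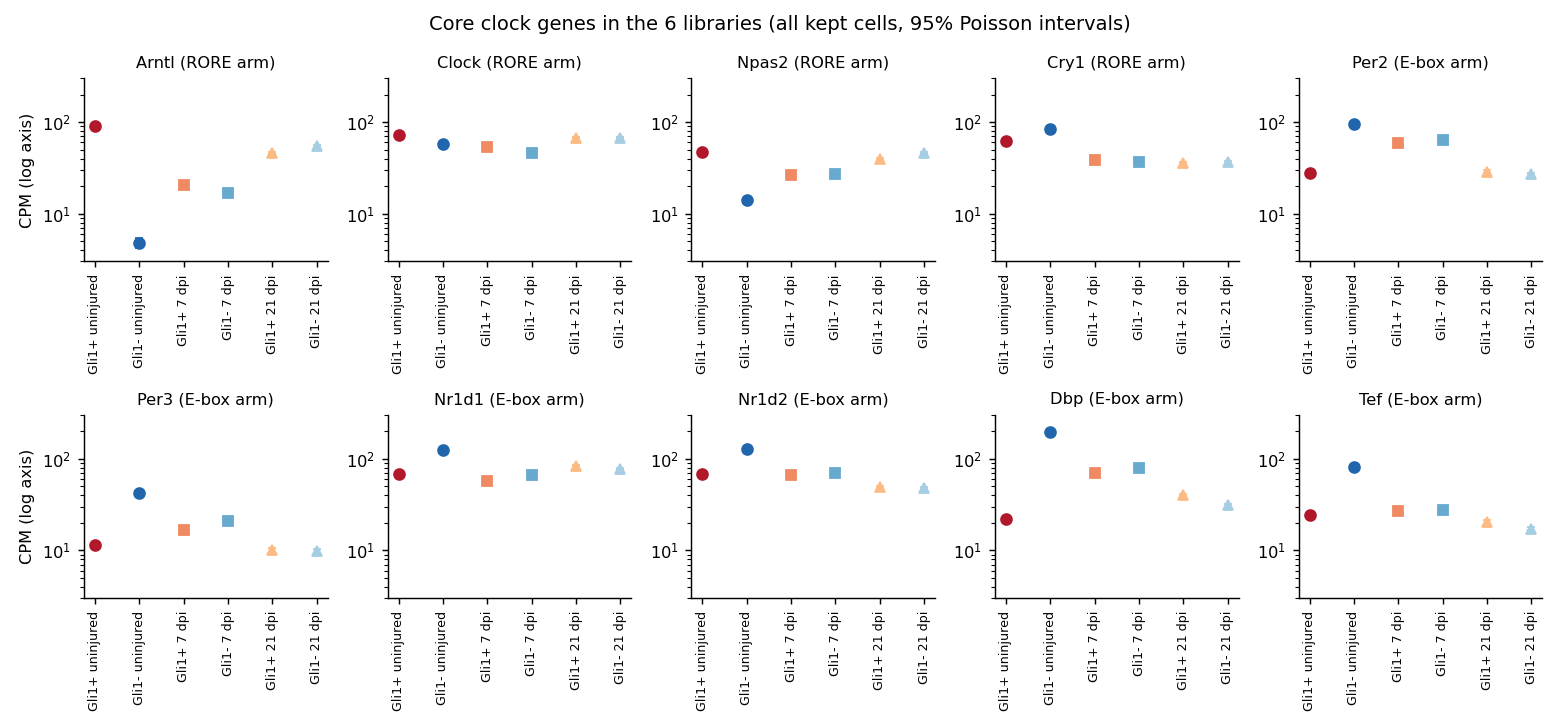
Level of each core clock gene (CPM, log axis) in the 6 libraries, summed over all kept cells, with 95% Poisson intervals that are mostly smaller than the points. Circles are uninjured, squares 7 dpi and triangles 21 dpi, with Gli1+ in red tones and Gli1- in blue tones. The circles are far apart for most genes, Arntl standing at 90.6 and 4.78 CPM and Dbp at 21.8 and 196 CPM, whereas the squares lie close to each other, as do the triangles.

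In uninjured tendon 8 of the 10 genes differed between the sorts by a log2 ratio of at least 0.58, the fold that the study used, 2 higher and 6 lower in Gli1+. Because the genes were chosen on this contrast, nothing is read from that count, which stands beside 49.7% of the 17789 genes with at least 50 UMIs in the pair. At a log2 ratio of at least 1 the count was 6, beside 32% of all genes. The log2 ratio of Gli1+ over Gli1- was 4.24 (4.06 to 4.43) for Arntl and 1.72 (1.61 to 1.84) for Npas2. It was -3.17 (-3.25 to -3.09) for Dbp, -1.90 for Per3, -1.79 for Per2, -1.71 for Tef, -0.92 for Nr1d2 and -0.85 for Nr1d1. Nr1d1 was the gene just inside the fold and Cry1, at -0.43, the gene just outside it, followed by Clock at 0.32. Cry1 thus lay with the E-box arm in this pair.

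The sort pairs at 7 and 21 dpi were not used to choose the genes. At 7 dpi 0 of the 10 genes differed by a log2 ratio of at least 0.58, beside 18.5% of the 17621 genes compared. The ratios of Gli1+ over Gli1- ran from -0.32 for Per3 (-0.41 to -0.22) to 0.30 for Arntl (0.20 to 0.39), and the median of their sizes was 0.15 beside 0.21 over all genes. At 21 dpi the count was again 0 of 10, beside 15.5% of 17331 genes. There the ratios ran from -0.24 for Arntl (-0.29 to -0.18) to 0.37 for Dbp (0.30 to 0.44), with a median size of 0.11 beside 0.16 over all genes. Small as these ratios were, over all kept cells their signs were ordered by arm. At 7 dpi all 6 genes of the E-box arm were lower in Gli1+, with the interval of Tef holding 0. There 3 of the 4 genes of the RORE arm were higher. At 21 dpi all 6 genes of the E-box arm were higher in Gli1+, with the intervals of Per3 and Nr1d2 holding 0. All 4 of the RORE arm were lower, with those of Clock and Cry1 holding 0. Of the 4 cell types compared at 7 dpi, 0 had the sign over all kept cells for Arntl, and 1 for Npas2 and for Per2. It was 2 for Clock, Cry1, Per3, Nr1d2 and Dbp, 3 for Nr1d1 and 4 for Tef. An interval lay on that side of 0 only for Dbp, in 1 type. The part of the cell mix in these signs was not tested.

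**Figure D2:**
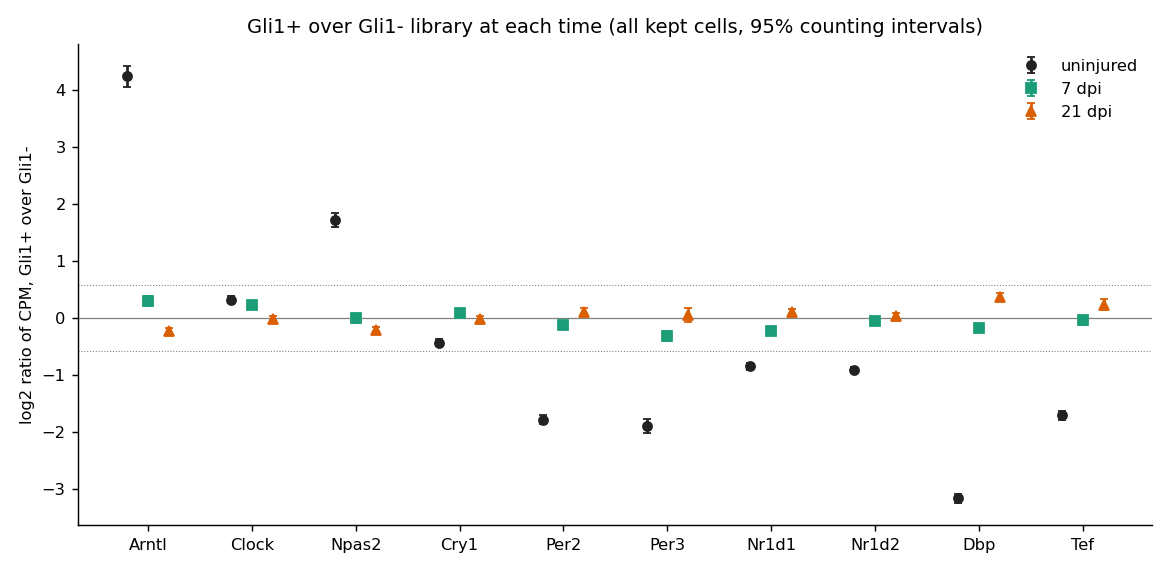
Log2 ratio of Gli1+ over Gli1- for each gene at each time (all kept cells, 95% counting intervals, RORE arm on the left from Arntl to Cry1 and E-box arm on the right from Per2 to Tef). Dotted lines mark 0.58 either way. The uninjured pair spans 4.24 to -3.17, and both injured pairs stay between the dotted lines.

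The arms were also summarised as 1 number per library, the mean log2 CPM of the E-box arm minus that of the RORE arm. It was -1.12 in Gli1+ and 2.06 in Gli1- uninjured tendon, 0.42 and 0.73 at 7 dpi, and -0.54 and -0.82 at 21 dpi. The Gli1+ minus Gli1- difference was -3.19 without injury, with an interval of -3.25 to -3.12. After injury it was -0.31 (-0.35 to -0.26) at 7 dpi and 0.27 (0.23 to 0.32) at 21 dpi. Both uninjured libraries therefore lay outside the range of the 4 injured ones, on opposite sides.

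Comparisons with injury inherit the gap between the uninjured libraries, since each sort has its own uninjured control. Within Gli1+, 5 of the 10 genes at 7 dpi and 3 at 21 dpi differed from uninjured tendon by the fold, beside 60.6% and 58.3% of all genes. There the log2 ratio of 7 dpi over uninjured tendon was -2.13 for Arntl and 1.68 for Dbp. Among the mesenchymal-like cells of that sort the counts were 5 and 5, beside 55.6% and 50.7% of all genes, with Arntl at -2.09, Npas2 at -1.67 and Dbp at 0.90 at 7 dpi. At 21 dpi all 5 were lower there (Arntl, Npas2, Cry1, Per3 and Tef). Dbp, past the fold over all kept cells at 0.88, was at 0.33 there. The clusters pooled differed, since tenocyte-like cluster 9 held 53 Gli1+ cells in uninjured tendon and 2835 at 21 dpi. Within clusters Dbp was past the fold in cluster 6 (1.13), cluster 11 (0.63) and cluster 12 (1.003). In tendon stem cell-like cells (0.22) and cluster 9 (-0.32) its interval held 0. Among these clusters Cry1 passed the fold only in cluster 9 (-1.04). Npas2 passed it in all but the tendon stem cell-like cells (-0.11, interval -0.29 to 0.07). Within Gli1-, 8 of the 10 genes at 7 dpi and 9 at 21 dpi differed, beside 54% and 49.1% of all genes. In that sort the log2 ratios at 7 and 21 dpi were 1.82 and 3.51 for Arntl and -1.32 and -2.66 for Dbp. The direction of Arntl, Npas2, Dbp, Per2, Per3 and Tef from uninjured tendon to 7 dpi was thus opposite in the sorts over all kept cells, the log2 ratios being -0.81 in Gli1+ and 0.92 in Gli1- for Npas2, 1.09 and -0.57 for Per2, 0.56 and -1.02 for Per3, and 0.13 and -1.54 for Tef. Among mesenchymal-like cells, which leave out the T cell-like cells that made up 46.3% of the Gli1+ uninjured library, Arntl, Npas2, Dbp and Per2 had opposite directions, whereas Per3 and Tef did not. There Per3 was at -0.31 (-0.45 to -0.16) in Gli1+ and -1.11 in Gli1-, and Tef at -0.48 (-0.60 to -0.37) and -1.55. These pooled cells lay in different clusters at the 2 times, since cluster 17 held 6607 Gli1+ cells at 7 dpi and 0 in uninjured tendon, and cluster 7 held 5210 Gli1- cells at 7 dpi and 27 in uninjured tendon. Within clusters found at both times the opposite directions did not hold for all 4 genes: Npas2 in Gli1- was at -0.22 (-0.50 to 0.05) in cluster 6, Npas2, Per2 and Dbp in Gli1- were at 0.01, 0.02 and 0.04 in tendon stem cell-like cells, each with an interval that held 0, and Per2 in Gli1+ was at -0.20 (-0.87 to 0.44) in cluster 12. The median of all genes was itself below 0 in these comparisons, at -0.24 and -0.30 in Gli1+ and -0.22 and -0.19 in Gli1- at 7 and 21 dpi, and the smaller ratios are to be read against that shift. These 4 comparisons share 2 uninjured libraries and do not stand apart from the uninjured pair. Each time also had its own mice, so time and mice cannot be told apart in them. Cells with Xist and no Y-linked UMI were 68.8%, 0.0108% and 92.7% of Gli1+ cells in uninjured, 7 dpi and 21 dpi tendon. In Gli1- they were 0%, 0.0101% and 90.6%.

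The difference of the uninjured pair was next followed in each cell type. Clusters were built without the clock genes and named only from fixed markers, and 8 types had at least 50 cells in both uninjured libraries, holding 2926 of the Gli1+ and 10278 of the Gli1- cells. They were endothelial-like cells (349 Gli1+ and 3519 Gli1- cells), tendon stem cell-like cells (415 and 736), mural-like cells (66 and 248), skeletal muscle-like cells (96 and 128, with Pax7 and Dct among the leading genes) and 4 clusters that stayed unnamed. Of the latter, cluster 6 (973 and 4703 cells, led by Inmt, Grm8 and Rtl4) and cluster 12 (257 and 105 cells, led by Luzp2, Unc13c and Sorcs3) were mesenchymal by their Pdgfra, cluster 11 (694 and 198 cells) raised all 5 tenocyte markers but had the satellite cell gene Chodl and no tenocyte marker among its leading genes and was kept with the mesenchymal-like cells, with Pdgfra at 46.9 CPM, and cluster 13 (76 and 641 cells, with Casq2, Zmat4 and Pde8b among its leading genes) was closest to the mural marker list, with none of those markers among the 10 genes that led it. In all 8 the E-box arm minus the RORE arm was lower in Gli1+. The difference was -3.28 (-3.61 to -2.95) in endothelial-like cells, -2.50 (-2.67 to -2.33) in tendon stem cell-like cells, -3.17 (-3.29 to -3.05) in cluster 6, -2.38 (-2.72 to -2.04) in cluster 11, -2.97 (-3.76 to -2.17) in cluster 12, -4.17 (-4.75 to -3.60) in cluster 13, -4.06 (-4.92 to -3.20) in mural-like cells and -1.54 (-2.03 to -1.05) in skeletal muscle-like cells. The last was the smallest, and its interval met that of none of the other 7 types.

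Gene by gene, 78 of the 80 combinations of gene and type had the sign of the whole library, 60 of them past the fold. The interval lay on that side of 0 in 62 and on the other side in 0. Of all genes 49.7% passed the fold over all kept cells of this pair and 26.5% in cluster 6, and the share in the other types is not given here. The genes were chosen on these libraries, whose sums include these types, so nothing is read from these counts. Arntl was higher in Gli1+ in 8 of 8 types, with levels of 46.9 to 134 CPM in the Gli1+ cells and 1.59 to 24.0 CPM in the Gli1- cells, so the levels did not overlap. Dbp was lower in Gli1+ in 8 of 8 types, at 5.75 to 53.5 CPM against 107 to 277 CPM, with no overlap in these types. With the types of at least 50 cells in only 1 uninjured library added, Dbp did overlap. It reached 85.8 CPM in Gli1+ (tenocyte-like cluster 9) and fell to 78.8 CPM in Gli1- (lymphatic endothelial-like cells). Both genes were chosen on this pair, and the share of all genes without overlap is not given here. In endothelial-like cells Arntl was at 69.4 CPM in Gli1+ and 4.33 CPM in Gli1-, and Dbp at 11.4 and 208 CPM. In tendon stem cell-like cells Arntl was at 134 and 10.03 CPM and Dbp at 31.4 and 148 CPM. The endothelial-like and tendon stem cell-like cells thus showed the same opposite order of these 2 genes. In mural-like cells the Gli1- count of Arntl was 2 UMIs and the Gli1+ count of Dbp was 3, and the log2 ratios were 5.22 (3.25 to 8.33) and -4.56 (-6.85 to -2.99).

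The other members were less even over the types. Tef was lower in Gli1+ in 8 of 8 types, with log2 ratios from -2.12 to -0.54, and Per2 and Per3 were lower in 8 of 8, with medians of -0.80 and -0.89. Clock was higher in Gli1+ in 8 of 8 types with a median log2 ratio of 0.87, which is more than its 0.32 over all kept cells, where the T cell-like cells of the Gli1+ library were at 48.3 CPM. Npas2 was higher in 8 of 8 types, from 0.34 in skeletal muscle-like cells, where Gli1- cells were already at 82.8 CPM, to 5.08 in cluster 13 and to 6.27 (3.69 to 11.6) in mural-like cells, where the Gli1- count was 1 UMI. Nr1d1 was the least different, at a median of -0.33, and was slightly higher in Gli1+ mural-like cells with an interval that held 0. Nr1d2 had its single opposite sign in skeletal muscle-like cells, also with an interval that held 0. Cry1 was lower in Gli1+ in 8 of 8 types, past the fold in 2 of them.

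**Figure D3:**
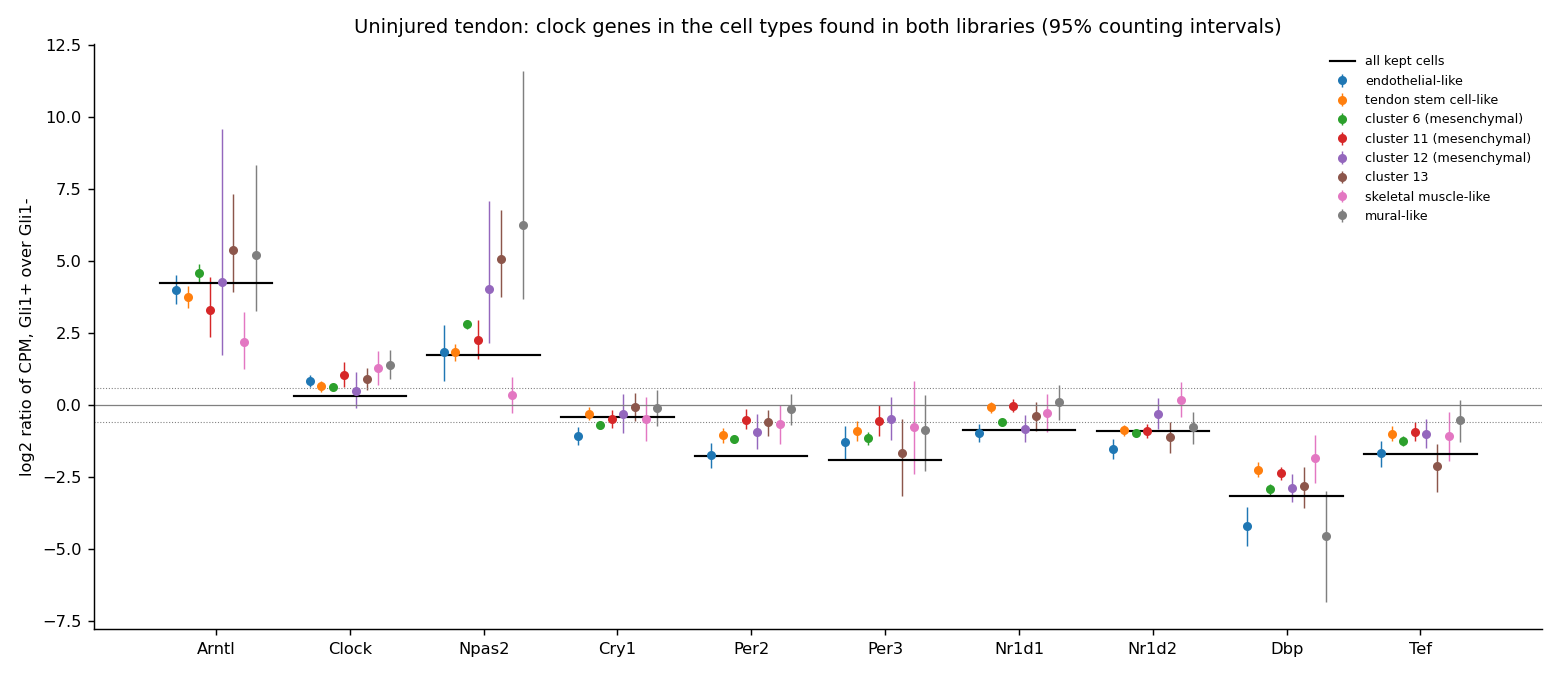
Log2 ratio of Gli1+ over Gli1- in uninjured tendon for each gene in each of the 8 cell types with at least 50 cells in both libraries, with 95% counting intervals. Black bars are the ratios over all kept cells and dotted lines mark 0.58 either way. Every point of Arntl lies above 0 and every point of Dbp below it, from 2.17 to 5.40 and from -4.56 to -1.83, while several intervals of Cry1 and Nr1d1 cross 0.

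Cluster 6 was the type with the most counts in both libraries among the 8 types. Its summed mesenchymal markers were close in the sorts, at 28140 CPM in Gli1+ and 27795 CPM in Gli1-, but its tenocyte markers were at 784 and 195 CPM. All 10 genes passed the fold there, 3 higher and 7 lower in Gli1+, beside 26.5% of the 13336 genes with at least 50 UMIs. Because the genes were chosen on this pair, nothing is read from that count. Arntl was at 81.6 CPM (723 UMIs) in Gli1+ and 3.42 CPM (98 UMIs) in Gli1-, Npas2 at 125 and 17.9 CPM, Dbp at 27.2 and 208 CPM, Per2 at 45.7 and 104 CPM, and Tef at 34.2 and 81.5 CPM. Droplet libraries carry free RNA from broken cells. Estimated from markers of other types, its share was at most 1.15% to 1.98% of UMIs in the 8 Gli1+ uninjured types. In the 8 Gli1- types it was at most 2.94% to 27.3%, the highest being cluster 12. With that share subtracted the arm difference ran from -4.44 to -1.48 over the 8 types, beside -4.17 to -1.54 without the subtraction, and the part of free RNA in it was not tested.

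Some types had at least 50 cells in only 1 uninjured library. T cell-like cells, found in the Gli1+ library, had Arntl at 108 CPM (104 to 111) and Dbp at 13.4 CPM (12.1 to 14.8), and their arm difference of -1.60 was the lowest of the 12 types of that library. Epidermal-like cells had Arntl at 53.3 CPM and Dbp at 10.9 CPM. The highest of those 12 arm differences was 0.26, in the tenocyte-like cluster 9 of 53 cells, where Dbp stood above Arntl, at 85.8 CPM (62.6 to 115) against 34.3 CPM (20.3 to 54.2). In the Gli1- uninjured library the 10 types ran from 0.30 in skeletal muscle-like cells to 2.98 in cluster 13, with Schwann-like cells at 2.55. The nearest values of the 2 libraries, 0.26 and 0.30, had counting SEs of 0.17 and 0.19, so those 2 types did not differ beyond counting error. At 7 dpi the types ran from 0.35 to 2.57 in Gli1+ and from 0.13 to 2.16 in Gli1-, and at 21 dpi from -1.62 to 0.997 and from -1.69 to -0.28. Over the 71 combinations of type and library, library took 77.9% of the sum of squares of the arm difference and type 27.3%, shares that overlap because the types are not balanced over the libraries. The points include the uninjured libraries, on which the genes were chosen, and the types of a library are not replicates. Nothing is read from these shares.

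**Figure D4:**
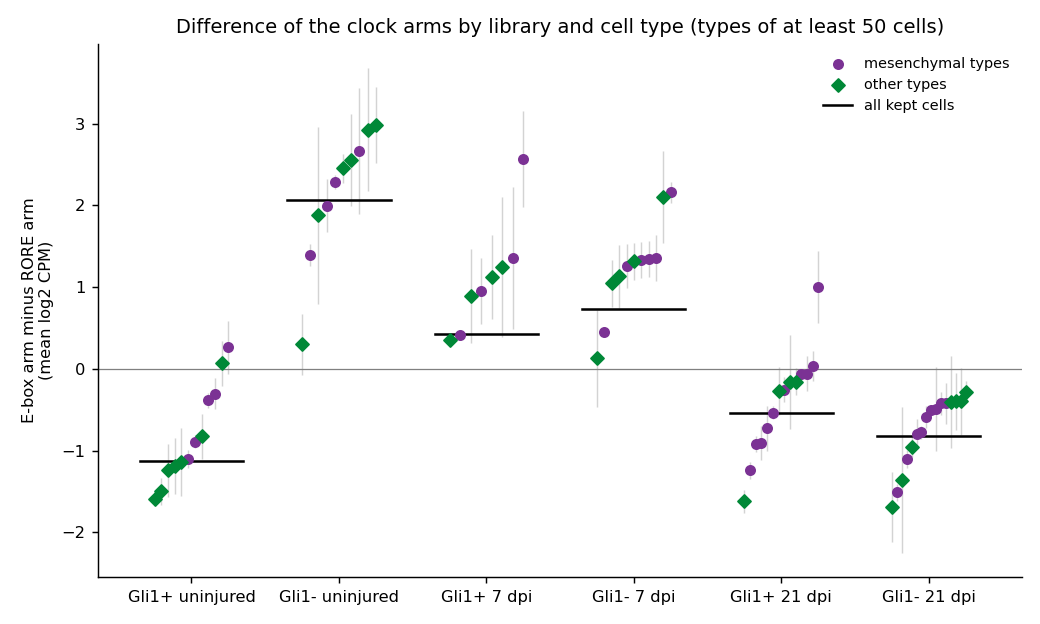
E-box arm minus RORE arm (mean log2 CPM) for each cell type of at least 50 cells in each library, with 95% counting intervals in grey. Circles are mesenchymal types, diamonds other types and black bars all kept cells. The types of Gli1+ uninjured tendon lie between -1.60 and 0.26 and those of Gli1- uninjured tendon between 0.30 and 2.98.

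The sort pairs after injury were next compared within types. At 21 dpi 13 types had at least 50 cells in both sorts, and the arm difference, Gli1+ minus Gli1-, was above 0 in 12 of them and past its counting interval in 9, with a median of 0.27. Single genes passed the fold in some types, among them Npas2 in cluster 6, at 43.4 CPM in Gli1+ and 86.8 CPM in Gli1-, and Dbp in mural-like cells, at 40.7 and 21.5 CPM, a log2 ratio of 0.92 (0.62 to 1.23). The highest arm difference was 1.49 (0.81 to 2.17), in cluster 12. The skeletal muscle-like cluster, with an arm difference of 1.196 (0.14 to 2.26), went against its name at 21 dpi. Its summed muscle markers were at 33.2 CPM in Gli1+ and 33.4 CPM in Gli1-, against 10990 and 7446 CPM in uninjured tendon, and its melanocyte markers at 3173 and 2125 CPM, against 1.66 and 0 CPM. At 7 dpi only 4 types could be compared, with differences from -0.86 to 0.49, of which 1 interval, that of cluster 7 (0.09 to 0.90), did not hold 0. Cluster 7 is led by H19, Ptn and Mest and held 74 Gli1+ and 5210 Gli1- cells. Most mesenchymal cells of the Gli1+ library at 7 dpi, 6607 in number, fell in cluster 17, which had fewer than 50 cells in the Gli1- library, so the pair at 7 dpi rests on different clusters.

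Within the Gli1- sort the gap from uninjured tendon to 7 dpi depended on the type. Tendon stem cell-like cells had 0 of 10 genes past the fold, with Arntl at 10.03 CPM uninjured and 12.4 CPM at 7 dpi and Dbp at 148 and 153 CPM, and their arm difference moved by -0.05 (-0.30 to 0.21). The share of all genes past the fold was 54% over all kept Gli1- cells. It is not given within this type or within cluster 6, so nothing is read from the counts there. The arm difference of cluster 6 moved by -0.13 (-0.28 to 0.03), with Dbp at 208 and 190 CPM, but 2 of its genes passed the fold, in opposite directions within the RORE arm. Arntl was at 3.42 and 5.61 CPM, a log2 ratio of 0.71 (0.20 to 1.21), and Cry1 at 81.1 and 40.04 CPM, a ratio of -1.02 (-1.18 to -0.86). Endothelial-like cells moved by -1.14 (-1.42 to -0.85), with Arntl at 4.33 and 13.5 CPM and Dbp at 208 and 132 CPM, and mural-like cells by -1.88 (-2.68 to -1.08). The interval of neither endothelial-like nor mural-like cells met those of tendon stem cell-like cells and cluster 6, whereas cluster 11 lay between at -0.64 (-1.07 to -0.21). All 8 types compared were lower at 7 dpi, 6 of them beyond the counting interval. The share of free RNA at 7 dpi was at most 26.5% in the tendon stem cell-like cells, 8.90% in cluster 6, 14.4% in the endothelial-like and 21.5% in the mural-like cells, and its part in these differences was not tested. At 21 dpi all 10 types compared in Gli1- were lower than in uninjured tendon, with differences from -3.88 to -1.65. The last value is that of the skeletal muscle-like cluster, whose cells at the 2 times differ in kind, and the other 9 ran from -3.88 to -2.27.

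The plot of Arntl against Dbp brings the types and libraries together. Over 68 combinations of type and library, with the mean of each type removed, Pearson's r of the log2 levels was -0.88. Both genes were chosen on the uninjured pair, whose types are among the points. The points also share libraries, depth and free RNA, so this is a description and has no p-value.

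**Figure D5:**
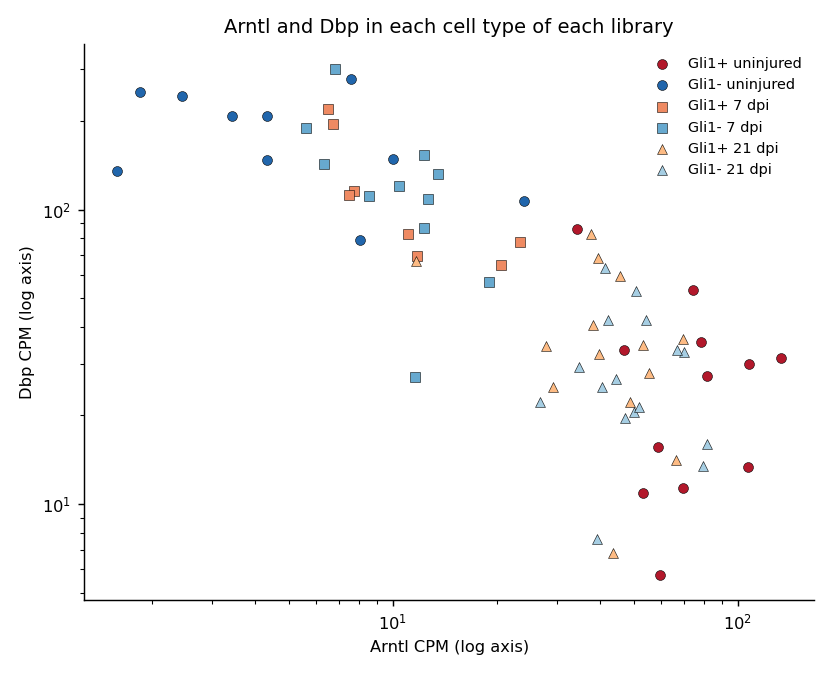
Level of Arntl (x axis, CPM, log axis) and of Dbp (y axis, CPM, log axis) in each cell type of at least 50 cells, coloured and shaped by library as in the key. Gli1- uninjured types lie at the upper left, at 1.59 to 24.0 CPM of Arntl, and Gli1+ uninjured types to their right, at 34.3 to 134 CPM.

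Sex of the cells moved with these levels and was examined cell by cell. A cell was called from Xist without a UMI of 4 Y-linked genes, or the reverse. Of the Gli1+ uninjured cells 68.8% had Xist only and 15.0% Y-linked UMIs only, whereas the Gli1- uninjured library had 0 cells with Xist only, where a count of 0 allows up to 3 cells, and 59.5% with Y-linked UMIs only. Xist-only cells were 1 in each library of 7 dpi, and 92.7% and 90.6% at 21 dpi. The 3 libraries with almost no Xist were the 3 with the highest arm difference. Among cells with Y-linked UMIs only, 1061 in Gli1+ and 6473 in Gli1- uninjured tendon, Arntl was at 81.5 CPM against 4.81 CPM, a log2 ratio of 4.08 (3.85 to 4.32), and Dbp at 27.3 against 189 CPM, a ratio of -2.79 (-2.97 to -2.62). The arm difference was -2.91 in these cells, beside -3.19 over all cells. Within the Gli1+ uninjured library, mesenchymal-like cells with Xist (1481) and with Y-linked UMIs (594) had arm differences of -0.79 and -0.81. Arntl was at 87.9 CPM in the former and 91.99 CPM in the latter, a log2 ratio of -0.07 (-0.21 to 0.08), and Dbp at 33.6 and 37.2 CPM, a ratio of -0.15 (-0.38 to 0.09), and 0 of the 10 genes passed the fold. The share of all genes past the fold between the sexes is not given here, among these cells or over all kept cells, so nothing is read from such counts. Over all kept cells of that library the sexes were less alike: Npas2 (-0.72), Per3 (-0.83) and Nr1d1 (-0.63) passed the fold, lower in cells with Xist, and the arm differences were -1.21 with Xist and -0.91 with Y-linked UMIs. The mesenchymal-like cells were 1481 of the 4854 cells with Xist and 594 of the 1061 with Y-linked UMIs there, and the part of this in those ratios was not tested. The part of sex in the differences over all kept cells was not tested.

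Genes of 2 other programs moved in the same uninjured pair. Of 10 genes of early response and tissue dissociation, 7 were lower and 1 higher in Gli1+ past the fold, and their summed level was 17225 CPM in Gli1+ and 28410 CPM in Gli1-. Of 9 glucocorticoid-responsive genes 5 were lower and 1 higher, with a summed level of 3378 and 7638 CPM. Of all genes 49.7% passed the fold in this pair. Within cluster 6 the counts were 2 lower and 1 higher of 10, and 2 lower and 1 higher of 9, with medians of -0.31 and -0.38, beside 26.5% of all genes past the fold. The summed level of the nuclear RNAs Malat1 and Neat1 was 21478 CPM in Gli1+ and 16395 CPM in Gli1-, with 0 of 2 past the fold. In cluster 6 both passed it, higher in Gli1+, with log2 ratios of 0.59 for Malat1 and 0.82 for Neat1. The part of these programs in the clock genes' difference was not tested.

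The remaining genes of the clock were read from lists that were not picked for how they moved, although earlier results were known. Of 11 other core clock genes 4 were lower and 2 higher in Gli1+ uninjured tendon, a share near the 49.7% of all genes. Hlf, the third PAR bZIP factor, was at 72.1 CPM in Gli1+ and 143 CPM in Gli1-, Cry2, a repressor, at 77.6 and 127 CPM, Bhlhe41, a competitor for E-boxes, at 12.2 and 26.3 CPM, and Ciart, a repressor of CLOCK and ARNTL, at 4.63 and 7.09 CPM. Nfil3, which represses at D-boxes and opposes DBP, was higher in Gli1+ at 77.2 against 43.8 CPM. Per1, which answers to acute stimuli as well as to the clock, did not pass the fold, with a log2 ratio of 0.32 over all cells, and was lower in Gli1+ within cluster 6 at -0.65. Cry2 likewise depended on the cells, with a log2 ratio of 0.07 in cluster 6, where Hlf was at -1.77 and Nfil3 at 0.96.

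Of 6 kinases and ubiquitin ligases that act on the clock proteins 2 were lower in Gli1+ past the fold, beside 49.7% of all genes, Csnk1e at 47.1 against 74.3 CPM and Btrc at 34.9 against 52.5 CPM, and in cluster 6 their log2 ratios were 0.14 and -0.15. In cluster 6 the 1 gene of the 6 past the fold was Fbxl21, a ligase for CRY proteins, which rests on 19 and 32 UMIs and was higher in Gli1+ at 0.94 (0.04 to 1.80). Of 5 clock outputs 3 were lower, beside the same 49.7% of all genes: Tspan4 at 28.7 against 139 CPM, Noct, a gene with a strong daily rhythm in liver, at 25.7 against 62.7 CPM, and Wee1, a cell cycle kinase under E-box control, at 30.3 against 70.7 CPM. All 3 were past the fold in cluster 6 too, with ratios of -1.33, -1.65 and -1.30. None of the genes of these 3 lists with enough UMIs passed the fold between the sorts at 7 dpi or at 21 dpi, beside 18.5% and 15.5% of all genes.

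Genes with the pattern most like that of the clock were ranked by Pearson's r with the arm difference, over the same 68 combinations with the mean of each type removed, among 9586 genes, the first 8 at each end being named among genes of at least 10 CPM on average. The genes of highest r included Cntn5 (0.89), Lars2 (0.87), H3f3b (0.86), Cmss1 (0.84), Dpm1 (0.83), Mcl1 (0.80) and Ywhaz (0.79). Cntn5, a neural adhesion protein, had levels without injury of 1.80 CPM (Gli1+) and 654 CPM (Gli1-), 173 and 206 CPM at 7 dpi, and 0.560 and 0.388 CPM at 21 dpi. Lars2 was at 845 CPM in Gli1- uninjured tendon and 214 to 274 CPM in the other 5 libraries. The 8 genes of lowest r were Tsix (-0.90), Xist (-0.89), Rpl23a (-0.84), Glud1 (-0.83), Leo1 (-0.80), Thoc6 (-0.80), Sertad2 (-0.80) and Piezo1 (-0.79). Xist and Tsix, its antisense partner, follow the sex of the cells. Of the other clock genes, Tspan4 (0.71), Ciart (0.65), Hlf (0.65) and Wee1 (0.62) had the highest r, with 26, 53, 54 and 71 genes at or above them, and Nfil3 the lowest at -0.56. With 6 libraries, a gene that differs between libraries for any reason can rank here, so the ranking names genes and nothing more.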

How the data were processed

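The deposited files held counts: per the file headers, whole-number UMI counts per gene and cell barcode, made by the authors from Chromium 3′ libraries of FACS-sorted Achilles tendon cells with Cell Ranger (9.0.0 in the matrix header, while the submitters' processing notes list 3.1.0, with STAR and mm10). Kept barcodes had 200 genes and 1000 UMIs or more, a complexity (log10 of genes divided by log10 of UMIs) of 0.7 or more, and no more than 5% of UMIs from mitochondrial or from hemoglobin genes. Doublets were then removed by Scrublet score at 0.8% per 1000 cells. Raw UMIs were summed over the kept cells of a library or type and scaled to CPM, with exact Poisson intervals of 95%, and ratios had exact binomial intervals. With 1 library per group no test was run, and a gene was called past the fold at a log2 ratio of at least 0.58 among genes with at least 50 UMIs in the pair. Arm levels had 0.5 added to each count.

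Cells of the 6 libraries were clustered together (scanpy 1.11.5, 2000 variable genes, 30 components, 20 neighbors, Leiden resolution 0.5) without 130 marker, clock and sex-linked genes. A cluster was named where at least 3 markers of 1 list were raised with a mean log2 ratio of at least 1, no other list came close, its cells were not shallow and its 10 leading genes held no more markers of another list than of its own, so names may differ from those of the study. Free RNA was bounded from markers of other types. All 10 members are named, with the genes of the other clock lists past the fold in the uninjured pair, Per1, and the 8 genes of highest and of lowest likeness. Per1 was named after its values were seen. The members and lists were chosen with earlier results of these data known. The ratio script was checked on simulated data. Alternatives were another scaling (TMM, edgeR 4.0.16), cell filters, thinning to 2000 UMIs per cell, equal weight per type, other folds and minimums, and other clusterings, and 2 sets of cells chosen after seeing the data. Of the genes that these rules name, 2 are not reported here, although the counts include them.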

Additional observations from a re-analysis of the deposited data

Results flagged for a closer look

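The Gli1+ minus Gli1- difference of the arms was negative in uninjured tendon (-3.19) and at 7 dpi (-0.31) and positive at 21 dpi (0.27), each with a counting interval clear of 0. Within cell types the sign at 7 dpi was mixed. Of the 4 types compared 2 were above 0 and 2 below, and the 1 interval clear of 0 was positive (cluster 7, 0.09 to 0.90), whereas at 21 dpi 12 of 13 types were above 0. In 7 of the 10 genes the ratio also had opposite signs at 2 of the times with both intervals clear of 0. The share of all genes with such a change of sign is not given here, so nothing is read from that count. In Clock, Per3 and Nr1d2 the sign at 21 dpi differed from that at the other times, with an interval that held 0. The log2 ratio of Gli1+ over Gli1- was 4.24, 0.30 and -0.24 for Arntl, in the order uninjured, 7 dpi, 21 dpi. It was -3.17, -0.17 and 0.37 for Dbp, -1.79, -0.13 and 0.10 for Per2, and -0.85, -0.22 and 0.11 for Nr1d1. For Npas2 it was 1.72 in uninjured tendon and -0.22 at 21 dpi, for Tef -1.71 and 0.23 at the same times, and for Cry1 -0.43 in uninjured tendon and 0.091 at 7 dpi, with -0.03 and an interval that held 0 at 21 dpi. With 1 library per group the difference between times was not tested, and the ratios after injury were all under the fold of 0.58.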

How the results depend on the processing

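TMM scaling cancels in the difference of the arms. The folds and the minimum of UMIs in a pair do not enter it. These settings therefore could not change that difference. TMM does act on the ratios of single genes, which are not given here under that scaling. Under every alternative run the difference of the arms kept its sign at each time. In uninjured tendon (-3.19) it was -2.66 with equal weight for each type and -1.90 without Dbp, Arntl and Tef, and, in sets of cells chosen after seeing the data, -2.93 without T cell-like cells and cluster 2 and -2.91 among cells with Y-linked and no Xist UMIs. At 7 dpi (-0.31) it was -0.50 as a mean of CPM per cell, -0.52 after thinning to 2000 UMIs and -0.15 with equal weight for each type, a setting under which 2 genes passed the fold in place of 0. At 21 dpi (0.27) it was 0.34 as a mean of CPM per cell, 0.45 with equal weight for each type and 0.16 without Dbp, Arntl and Tef. The count of 8 types was 5 of 5 by marker gates without clusters and 3 of 3 at 200 cells or more, since fewer types could be compared. The count of genes past the fold in uninjured tendon was 8, 6 at a log2 ratio of at least 1, and 9 in both sets of cells chosen after seeing the data. The genes were chosen on this pair. The share of all genes is not given here for those sets of cells, nor for equal weight per type at 7 dpi. Nothing is read from these counts of genes. Libraries could not be paired by replicate number, because each group had 1 library. A test of sort with the 3 times as blocks was not run, since it would include the uninjured pair on which the genes were chosen. The intervals cover counting error only, and types with 1 or 2 UMIs of a gene bound its ratio loosely.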
